A study of Mus musculus with 3 samples.

Results

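The genes described here are 10 components of the Hippo pathway, namely Yap1, Wwtr1, Tead1, Tead2, Tead3, Tead4, Lats1, Lats2, Amotl1 and Amotl2, taken by gene symbol from a table of 19381 listed genes. All 10 were found. The table holds bulk RNA sequencing of 3 libraries of proximal incisor mesenchyme, numbered as replicates 1 to 3, from mice called DKO, which carried Gli1-CreER and floxed alleles of both Arid1a and Arid1b (Arid1a fl/fl, Arid1b fl/fl). Mice received tamoxifen by intraperitoneal injection, 1.5 mg for each 10 g they weighed, and the incisors were collected after 4 days. The age of the mice is given as 1 month. The Cre recombinase is driven by the Gli1 gene, so recombination is limited to Gli1-expressing cells and their descendants, while the RNA comes from the whole tissue piece. The labels do not say whether the libraries came from separate animals. SDs and tests therefore cover the spread among the 3 libraries alone, and that spread may be technical. Animals of another genotype were not analysed here, so every result is a level or a spread within DKO tissue.

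The Hippo pathway is a kinase cascade that limits organ growth. The kinases LATS1 and LATS2, aided by MOB1 and by the MST kinases above them, phosphorylate the coactivators YAP (encoded by Yap1) and TAZ (encoded by Wwtr1), which are then held in the cytoplasm or degraded. Unphosphorylated YAP and TAZ enter the nucleus and bind the TEAD factors, which contact DNA, and angiomotins at cell junctions bind YAP and keep it out of the nucleus. Lats2 and Amotl2 are themselves known targets of YAP and TEAD, which makes them negative feedback genes. In the mouse incisor, YAP and TAZ are known for keeping progenitor cells of the dental epithelium dividing.

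Values are normalized counts as deposited, scaled by the authors and not divided by gene length. The 75th percentile over listed genes was 44.7 in every library and the totals were 986401, 958773 and 966163 normalized counts in replicates 1, 2 and 3. The floxed genes were listed in every library, with Arid1a at 132.8 ± 3.05 and Arid1b at 50.7 ± 0.156 normalized counts (SD, n = 3). Gene-level values also hold reads from exons outside a deleted part and from unrecombined cells, so they do not check the deletion. Markers of dental mesenchyme were high, for example Prrx1 at 559, 675 and 623 normalized counts in replicates 1, 2 and 3. Markers of other cells were present as well. Krt14 of dental epithelium was at 123, 191 and 154, Cdh5 of endothelium at 76.0, 81.2 and 107 and Csf1r of macrophages at 173, 228 and 246. In such bulk tissue, fewer cells of a type and less RNA per cell cannot be told apart.

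All 10 genes were measured above 1 normalized count in every library, and 9 of the 10 reached 10 in all 3. Over all listed genes 51.4% reached 10 in all 3 libraries. The exception was Tead4. Over the 9 genes averaging at least 10, the median range over libraries of log2(value + 1) was 0.12, against 0.19 over the 10388 genes of such a mean. A range of at most 0.25 was found for 6 of the 9 genes, against 65.2% of all genes, so the share was near the background. A range of at least 0.5 was found for 2 of the 9, Amotl2 and Lats2, against 8.12% of all genes. Without replicate 1 neither gene reached that range, and without replicate 3 neither did, although a range over 2 libraries cannot exceed that over 3. The lowest value was in replicate 1 for 5 of the 9 genes, against 38.1% of all genes. Replicate 1 was lowest and replicate 3 highest for 4 of the 9, namely Wwtr1, Tead1, Lats2 and Amotl2, against 20.6% of all genes.

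**Figure D1:**
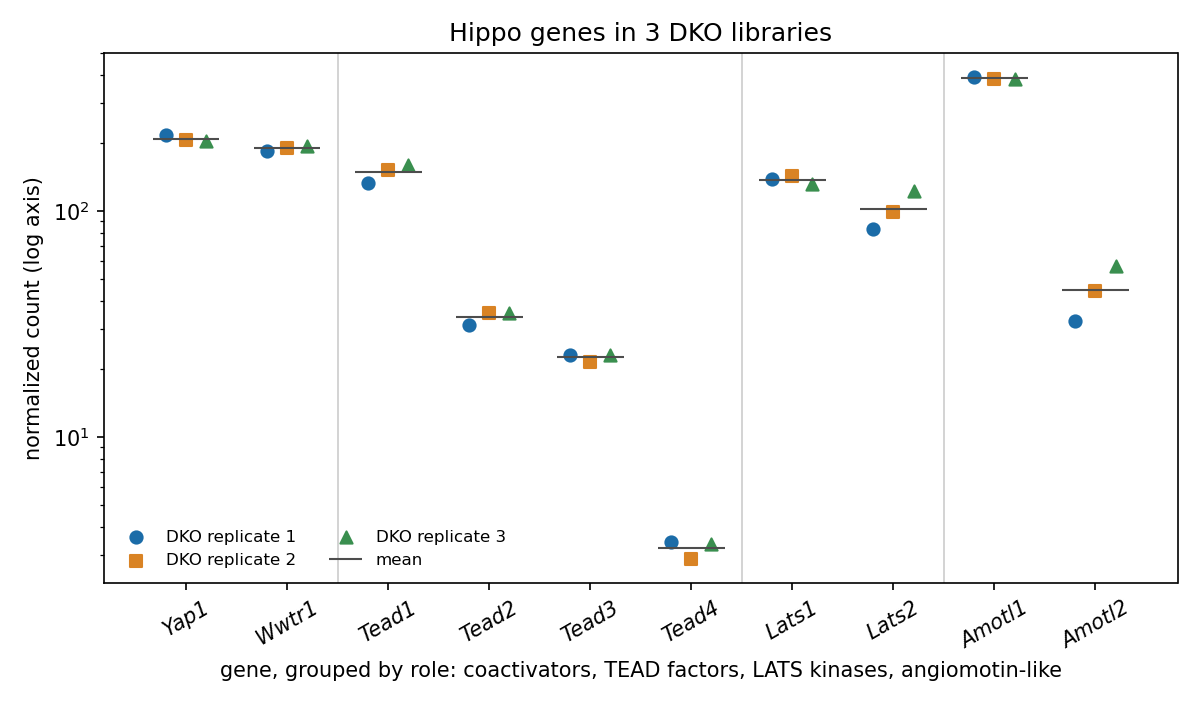
Normalized counts (log axis) of the 10 Hippo genes, grouped by role, with 1 symbol per DKO library and a line at the mean of 3 libraries. The 3 symbols lie close together for most genes, while Amotl2 (32.5, 44.4 and 57.0 in replicates 1, 2 and 3) and Lats2 (83.5, 99.6 and 122) spread more widely.

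TEAD factors bind DNA at the bases GGAATG, read as CATTCC on the other strand, and both spellings were searched in RefSeq promoter windows that run from 250 bases before to 50 bases after each gene start (GRCm38.p6). Windows were matched for 8 of the 10 genes, all but Tead1 and Tead4. The motif was present in at least 1 window of 5 of the 8 genes, namely Yap1, Wwtr1, Tead3, Lats2 and Amotl2, and in 16.6% of 27025 genes in the table. Tead3 had 3 windows and Lats2 and Wwtr1 had more than 1, which gives these genes more bases in which to match. The sites are shown for the coactivators, for the 2 feedback genes and, outside the 10 genes, for Ccn1, a known YAP target with a wide spread here. Of 14 genes of the YAP target signature with a window, described further on, 6 held the motif, Amotl2 and Lats2 among them, and no window was matched for Ccn2. Sites of Tead3 and, from the signature, of Axl, Crim1 and Ptpn14 are not printed. The log2 ranges of these genes were 0.09, 0.18, 0.27 and 0.34, smaller than those of Lats2, Amotl2 and Ccn1. Yap1 and Wwtr1, whose sites are printed, had ranges of 0.10 and 0.08. Each line gives 30 bases in the direction of the gene with the motif in capitals, and a match is a description of the letters only.
Yap1, chr9:8004720-8004749, minus strand: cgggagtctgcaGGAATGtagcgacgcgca
Wwtr1, chr3:57576029-57576058, minus strand: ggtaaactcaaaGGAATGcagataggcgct
Lats2, chr14:57746102-57746131, minus strand: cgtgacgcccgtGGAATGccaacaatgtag
Amotl2, chr9:102717727-102717756, plus strand: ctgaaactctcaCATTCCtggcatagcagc
Ccn1, chr3:145650071-145650100, minus strand: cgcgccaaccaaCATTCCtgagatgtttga
The Yap1 and Wwtr1 sites lay upstream of the gene start, outside annotated exons. The Lats2 site began 4 bases after a gene start, inside an annotated exon. The Amotl2 site began 65 bases before the RefSeq start, within an annotated exon of Amotl2, and the Ccn1 site began 103 bases before its start.

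The 2 feedback genes were both lowest in replicate 1 and highest in replicate 3, an order found for 20.6% of all genes. Bases upstream of a RefSeq start are also shown for each, limited to a stretch outside annotated exons. Both starts lie inside the gene spans of M21, downstream of the outermost annotated start. Lats2 had a second window, at another start, which is not printed. Neither stretch holds the motif, and the capital letters in the Lats2 and Amotl2 lines above fall outside them.
Lats2, chr14:57746124-57746373, minus strand: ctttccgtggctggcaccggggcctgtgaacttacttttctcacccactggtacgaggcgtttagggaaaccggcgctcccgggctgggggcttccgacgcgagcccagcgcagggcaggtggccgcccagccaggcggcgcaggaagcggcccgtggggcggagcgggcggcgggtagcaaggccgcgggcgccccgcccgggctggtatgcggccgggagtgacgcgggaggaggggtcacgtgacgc
Amotl2, chr9:102717554-102717667, plus strand: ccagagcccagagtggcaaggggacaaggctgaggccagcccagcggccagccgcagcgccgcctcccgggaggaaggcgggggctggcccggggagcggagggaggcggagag
G and C made up 74.0% of the 250 bases of the Lats2 stretch and 77.2% of the 114 bases of the Amotl2 stretch, which begins 250 bases before the RefSeq start and ends short of it. In the second Lats2 window G and C made up 44.8% of the 250 bases before the start.

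The coactivators were abundant and differed little between libraries. Yap1 (chromosome 9, 7931999 to 8004596, minus strand, GENCODE M21) stood at 218, 207 and 204 normalized counts in replicates 1, 2 and 3, a mean of 209 ± 7.61 (SD, n = 3). Wwtr1 (chromosome 3, 57455649 to 57575910, minus strand) stood at 184, 189.8 and 195 normalized counts, a mean of 189.7 ± 5.44. Yap1 was highest in replicate 1 and Wwtr1 was highest in replicate 3, and the libraries differed 1.07-fold for Yap1 and 1.06-fold for Wwtr1 between the highest and the lowest. Per kilobase of exon, with the union of all annotated exons as length (9257 bases for Yap1 and 4779 for Wwtr1), Wwtr1 was at 39.7 ± 1.14 and Yap1 at 22.6 ± 0.822. Wwtr1 exceeded Yap1 within every library on this scale, by a log2 difference of 0.81 ± 0.09 (exact two-sided sign-flip permutation test, p = 0.25, adjusted p = 0.25 over 9 pairs, the smallest p that 3 libraries allow). With the longest annotated transcript as length the difference was 0.03 ± 0.09, and undivided values gave -0.14 ± 0.09. The order of the 2 coactivators was therefore set by the choice of length.

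Of the TEAD factors, which carry YAP and TAZ to DNA, Tead1 was the most abundant and Tead4 the least in every library, both as deposited and per kilobase of exon. Tead1 (chromosome 7, 112679318 to 112906807, plus strand) stood at 133, 152 and 160.1 normalized counts, a mean of 148 ± 13.7, and was lowest in replicate 1. Tead2 (chromosome 7, 45215753 to 45233644, plus strand) stood at 31.4, 35.4 and 35.3 normalized counts, a mean of 34.1 ± 2.28, also lowest in replicate 1. Replicate 2 gave the lowest value of Tead3 (chromosome 17, 28331671 to 28350817, minus strand), which stood at 23.0, 21.5 and 23.1 normalized counts. Tead4 (chromosome 6, 128224288 to 128300823, minus strand), best known from the trophectoderm of the mouse embryo, stood at 3.44, 2.88 and 3.38 normalized counts. If the smallest value in the table stands for 1 read, which could not be settled, the Tead4 values rest on 118, 105 and 145 reads, with counting errors of 9.21%, 9.76% and 8.30%. Its coefficient of variation over libraries was 9.38%, about the size of those errors.

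Summed per kilobase of exon, the 4 TEAD genes reached 20.8, 22.6 and 23.6 in replicates 1, 2 and 3. Tead1 made up 47.3%, 49.5% and 50.1% of that sum, Tead2 31.6%, 32.7% and 31.3%, Tead3 16.5%, 14.2% and 14.6%, and Tead4 4.60%, 3.55% and 3.99%. The shares thus kept one order in each library. The log2 differences per kilobase were 0.62 ± 0.05 for Tead1 minus Tead2, 1.08 ± 0.14 for Tead2 minus Tead3 and 1.91 ± 0.08 for Tead3 minus Tead4, each positive in 3 of 3 libraries. Tead1 minus Tead3 gave 1.70 ± 0.16, Tead1 minus Tead4 gave 3.61 ± 0.22 and Tead2 minus Tead4 gave 2.99 ± 0.21. All 6 had p = 0.25 and adjusted p = 0.25 in the exact sign-flip permutation test, the smallest p that the design allows, and all 6 stayed positive with the longest transcript as length.

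**Figure D2:**
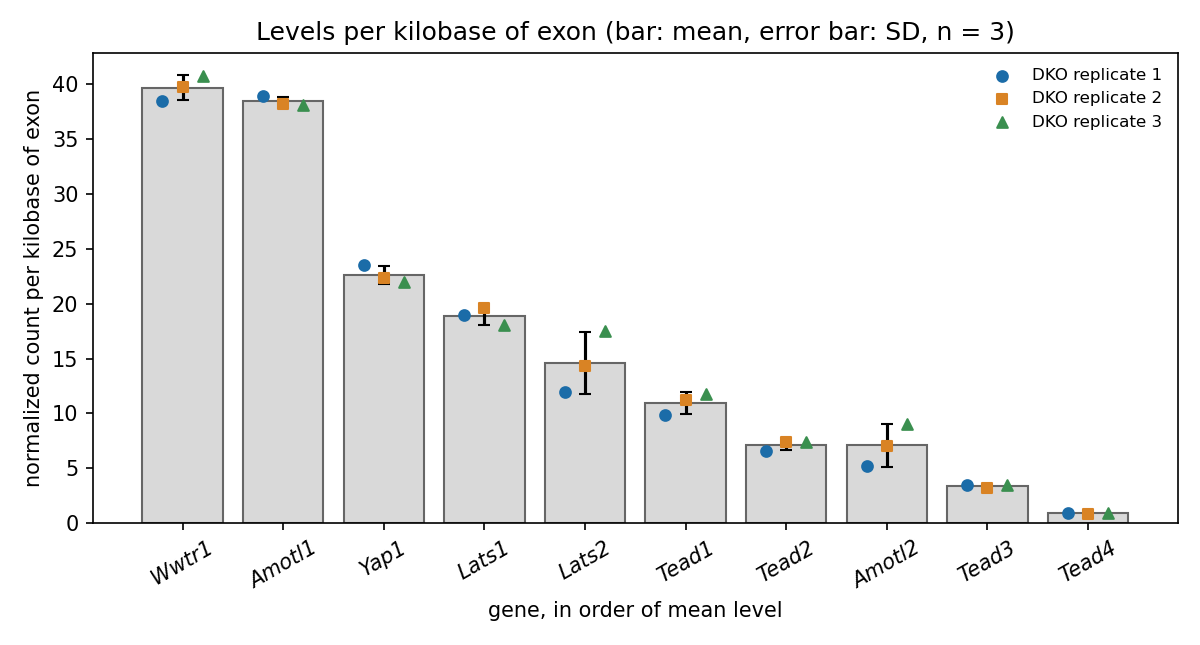
Normalized counts per kilobase of exon (union of annotated exons) for the 10 Hippo genes in order of their mean, with bars at the mean of 3 DKO libraries, error bars of 1 SD and 1 symbol per library. Wwtr1 and Amotl1 stand at 39.7 and 38.5, Tead3 and Tead4 are lowest, and the symbols of Lats2 and Amotl2 lie furthest apart relative to their bars.

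The LATS kinases, which phosphorylate YAP and TAZ, differed in how steady they were. Lats1 (chromosome 10, 7681214 to 7716460, plus strand) stood at 139, 143 and 132 normalized counts, a mean of 138 ± 5.88. Lats2 (chromosome 14, 57689662 to 57758388, minus strand) stood at 83.5, 99.6 and 122 normalized counts, a mean of 102 ± 19.5, with replicate 1 lowest and replicate 3 highest. The highest library exceeded the lowest 1.46-fold for Lats2 and 1.09-fold for Lats1, and 93.4% of genes with a mean of at least 10 had a smaller log2 range than Lats2. Within libraries, Lats2 minus Lats1 per kilobase was -0.67, -0.46 and -0.04 on the log2 scale in replicates 1, 2 and 3. Lats2 thus made up 38.7% of the sum of both kinases per kilobase in replicate 1, 42.1% in replicate 2 and 49.3% in replicate 3. The mean difference of -0.39 ± 0.32 (exact sign-flip permutation p = 0.25, adjusted p = 0.25) became 0.02 with the longest transcript as length, so the 2 kinases could not be ranked. A predicted protein-coding gene on the same strand, Gm49361, shares 42.4% of the exon bases of Lats2 and is not among the listed genes, so the Lats2 values are uncertain to the extent that reads were split between them.

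The angiomotin-like genes, whose proteins bind YAP at cell junctions, differed both in level and in spread. Amotl1 (chromosome 9, 14541966 to 14645056, minus strand) stood at 392, 385 and 384 normalized counts, a mean of 387 ± 4.43, and its log2 range of 0.03 was smaller than that of nearly all genes, with 2.26% lower. Amotl2 (chromosome 9, 102716672 to 102733418, plus strand) stood at 32.5, 44.4 and 57.0 normalized counts, a mean of 44.7 ± 12.3, with replicate 1 lowest and replicate 3 highest. The highest library exceeded the lowest 1.75-fold for Amotl2, against 1.02-fold for Amotl1, and 97.1% of genes had a smaller log2 range than Amotl2. If the smallest value is 1 read, counting error for Amotl2 was 2.99%, 2.49% and 2.02%, below its coefficient of variation of 27.5%. Amotl2 minus Amotl1 per kilobase was -2.91, -2.44 and -2.07 on the log2 scale, a mean of -2.47 ± 0.42 (exact sign-flip permutation p = 0.25, adjusted p = 0.25). It was negative in 3 of 3 libraries and with every choice of length. The founding member of the family, Amot, stood at 138, 138 and 132 normalized counts. It was picked with its values in view. Of the 3 angiomotin genes summed per kilobase, Amotl1 made up 62.3% ± 1.90, Amot 26.2% ± 1.10 and Amotl2 11.5% ± 2.93 (SD, n = 3).

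In order of level per kilobase the genes ran Wwtr1 (39.7 ± 1.14), Amotl1 (38.5 ± 0.440), Yap1 (22.6 ± 0.822), Lats1 (18.9 ± 0.806), Lats2 (14.6 ± 2.80), Tead1 (10.9 ± 1.01), Tead2 (7.11 ± 0.476), Amotl2 (7.10 ± 1.95), Tead3 (3.36 ± 0.130) and Tead4 (0.899 ± 0.0843). Over all genes averaging at least 10, the median was 8.62 on this scale, and 91.3% of them lay below Wwtr1 and 14.1% below Tead3. Wwtr1 and Amotl1 overlapped between libraries and their difference (log2 0.05 ± 0.06) was within its SD. Tead2 and Amotl2 overlapped as well, with a difference of 0.04 ± 0.32. The other neighbours did not overlap, although Lats2 in its lowest library (11.98) lay close to Tead1 in its highest (11.8), and Lats1 in its lowest (18.0) close to Lats2 in its highest (17.5). All of this holds for the union of exons as length. With the longest transcript as length, Amotl1, Wwtr1 and Yap1 averaged 43.2, 40.4 and 39.6, and Lats2 and Lats1 averaged 19.6 and 19.1. The order within these 2 sets of genes was therefore not settled.

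The gene pattern of Amotl2 over the 3 libraries was compared with that of the other genes with a mean of at least 10, by the Euclidean distance between their log2 deviations. The nearest were Myo1f, which encodes a myosin of immune cells, at 9.20, 12.7 and 16.4 normalized counts (distance 0.015), Cadm3, an adhesion molecule, at 11.1, 15.1 and 20.0 (distance 0.025), and Panx3, a pannexin of skeletal cells, at 26.1, 34.8 and 44.7 (distance 0.032). Of the 10387 genes ranked, Ccn1 was at rank 19, Lats2 at rank 84, the macrophage marker Csf1r at rank 149, the endothelial marker Cdh5 at rank 239, Ccn2 at rank 287 and Tead1 at rank 860. These 6 ranks were looked up with the values in view. With 3 libraries, many genes share a pattern.

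Outside the 10 genes, the kinases and adaptors that act with LATS were listed in full. All 5 genes of the core cassette had ranges of at most 0.25, against 65.2% of all genes, with a median of 0.09 against 0.19 over all genes. The widest in the cassette were Mob1b (0.24) and Stk3 (0.23). Mob1a, the adaptor that activates LATS, was highest at 209, 216 and 212 normalized counts, and its paralog Mob1b was at 90.2, 97.2 and 81.9. Stk3 and Stk4, which encode the MST kinases, were at 83.2 ± 6.79 and 69.5 ± 2.37, and the scaffold Sav1 was at 81.8 ± 1.90 (SD, n = 3). A list of 12 further kinases held upstream kinases of LATS and also Stk38 and Stk38l, which encode relatives of LATS. Of these 12, 10 had a mean of at least 10. Ranges of at most 0.25 were found for 9 of the 10, against 65.2% of all genes. Replicate 1 was highest for 5 of the 10, against 31.2% of all genes, and lowest for 2, against 38.1%. Taok1 (263 ± 15.8), Map4k4 (181 ± 4.26), Map4k5 (118 ± 5.54) and Taok2 (86.3 ± 6.65) led the list.

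Junction and membrane regulators had a median range of 0.16, against 0.19 over all genes. Fat1, an atypical cadherin that acts upstream of Hippo signalling, was at 655, 825 and 849 normalized counts, lowest in replicate 1. Dchs1, the ligand cadherin of Fat4, was at 272, 294 and 334, the FERM protein Frmd6 at 187, 201 and 204, and the phosphatase Ptpn14, which binds YAP, at 142, 163 and 181. All 4 were lowest in replicate 1 and highest in replicate 3, an order found for 20.6% of all genes. Of the 11 members of this list with a mean of at least 10, 7 were lowest in replicate 1, against 38.1% of all genes, and 8 were highest in replicate 3, against 34.6%. A range of at most 0.25 was found for 6 of the 11, near the 65.2% of all genes. Wwc1, which encodes KIBRA, had the widest range among them and went another way, at 17.2, 19.4 and 13.0. Nf2, which encodes the tumour suppressor merlin, stood at 118, 116 and 118, and it was picked with its values in view.

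The LIM proteins Ajuba, Limd1 and Wtip, which bind and restrain LATS, were at 50.6 ± 5.19, 63.3 ± 1.95 and 23.4 ± 2.43 normalized counts (SD, n = 3). Their log2 ranges were 0.27, 0.08 and 0.29, a median of 0.27 against 0.19 over all genes. Ajuba and Wtip were lowest in replicate 1 and highest in replicate 3, an order found for 20.6% of all genes. Of the VGLL cofactors, which compete with YAP for TEAD, Vgll4 was at 73.8 ± 4.19 and Vgll3 at 4.50 ± 1.13, while Vgll1 and Vgll2 were not among the listed genes.

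A published YAP target signature of 22 genes, which includes Amotl2 and Lats2, was more uneven than the kinase lists and the junction regulators. It was drawn from studies of tumours, and 21 of its genes were listed, the exception being Ankrd1. Of the 18 with a mean of at least 10, a range of at least 0.5 was found for 7, namely Ccn1, Amotl2, Ccn2, Ccdc80, F3, Igfbp3 and Lats2, against 8.12% of all genes. The median range was 0.33, and 0.29 over the 16 genes other than Amotl2 and Lats2, against 0.19 over all genes. The lowest value was in replicate 1 for 14 of the 18, against 38.1% of all genes. Replicate 1 was lowest and replicate 3 highest for 11 of the 18, against 20.6% of all genes, and for 9 of the 16 without Amotl2 and Lats2. The count of 7 genes with a range of at least 0.5 was 0 without replicate 1, 6 without replicate 2 and 3 without replicate 3, against 2.54%, 5.24% and 4.84% of all genes in those pairs of libraries. A range over 2 libraries cannot exceed that over 3, so the count could only stay or fall. The 3 genes left without replicate 3 were Ccn2, Ccn1 and F3. These shares describe 3 libraries and were not tested.

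**Figure D3:**
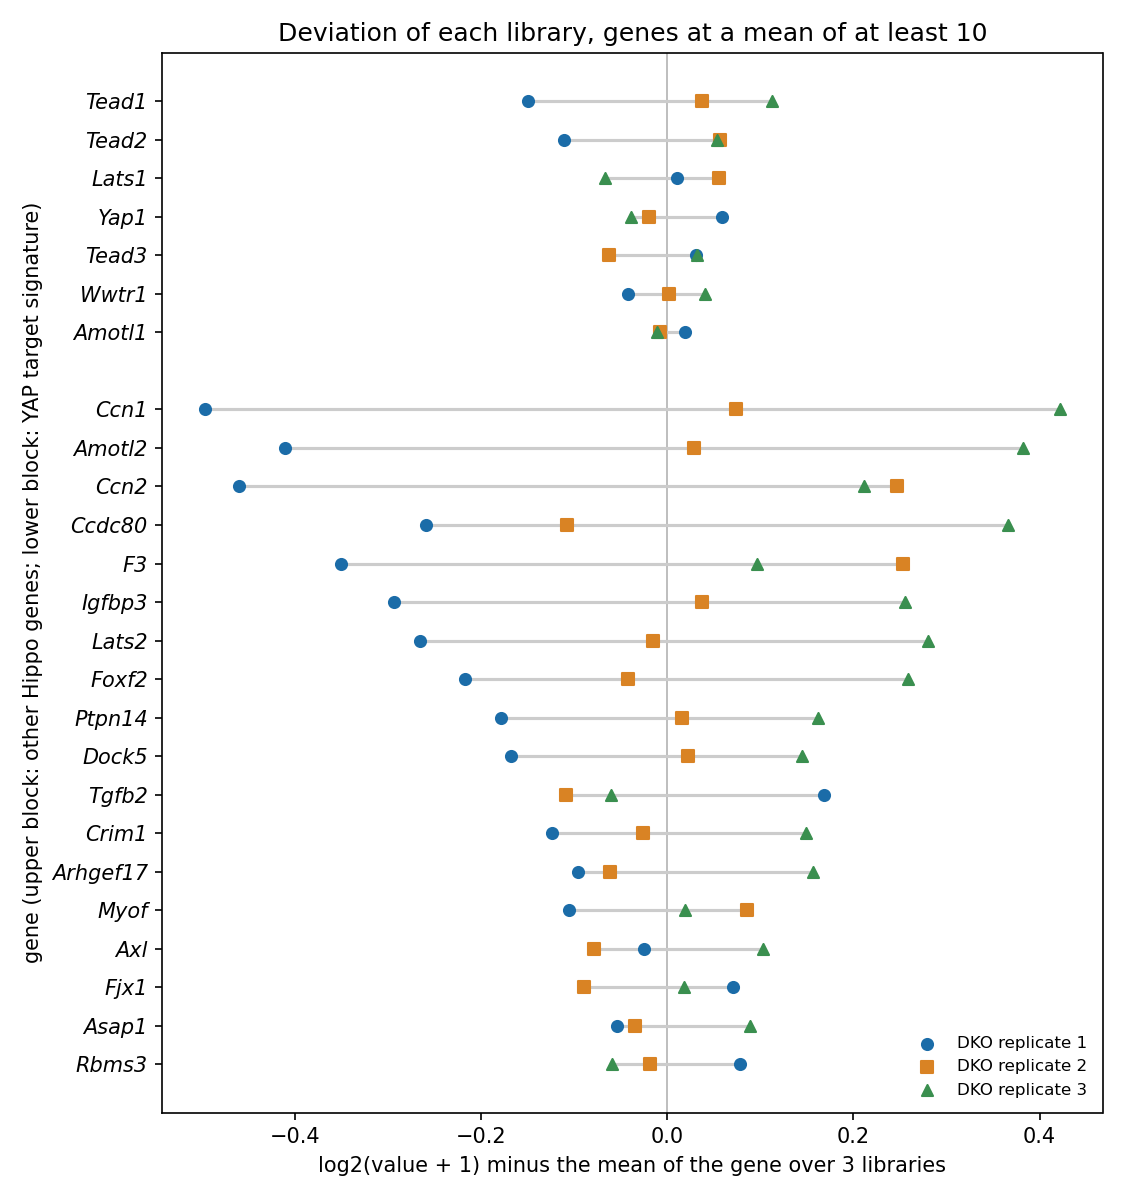
Deviation of log2(value + 1) in each DKO library from the mean of the gene over 3 libraries, for 7 Hippo genes (upper block) and the 18 genes of the YAP target signature with a mean of at least 10, Amotl2 and Lats2 among them (lower block). Replicate 1 lies leftmost for 14 of the 18 signature genes. In the upper block Yap1, Wwtr1, Tead3, Lats1 and Amotl1 stay near 0. Tead1 (-0.15, 0.04 and 0.11 in replicates 1, 2 and 3) and Tead2 (-0.11, 0.06 and 0.05) lie further out, with replicate 1 leftmost.

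The matricellular genes Ccn1 and Ccn2, the most used readouts of YAP activity, were both lowest in replicate 1. Ccn1 was at 12.4, 18.96 and 24.4 normalized counts and Ccn2 at 139, 227 and 222. Ccn1 was highest in replicate 3, as were Amotl2 and Lats2, and Ccn2 was highest in replicate 2. Igfbp3, a carrier of insulin-like growth factors, was the most abundant of the signature at 960.2, 1208 and 1405 normalized counts. Ccdc80, a secreted matrix protein, was at 38.6, 43.0 and 60.1, and F3, which encodes tissue factor, was at 11.1, 17.4 and 15.5. Others did not follow. Tgfb2, a growth factor, was highest in replicate 1 at 523, 432 and 446, and the receptor kinase Axl was lowest in replicate 2 at 213, 206 and 233. Rbms3, picked with its values in view, stood at 112, 104 and 101 and was also highest in replicate 1.

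Markers of other cell types also differed between the same libraries. All 6 endothelial markers were highest in replicate 3, against 34.6% of all genes, and their summed values were 318, 336 and 449 normalized counts in replicates 1, 2 and 3. All 6 macrophage markers were lowest in replicate 1, against 38.1% of all genes, with sums of 756, 1030 and 1073. Of the 7 markers of dental epithelium 6 were highest in replicate 2, against 34.2% of all genes, with sums of 759, 1226 and 941, and the 5 odontoblast markers with a mean of at least 10 had a median log2 deviation of -0.87 in replicate 2. The 6 mural markers had median log2 deviations of -0.09, -0.04 and 0.13, and the 6 markers of dental mesenchyme -0.08, 0.01 and 0.05. These medians hide a wide spread in mesenchyme, with sums of 14301, 10272 and 20734. Col1a1, also an odontoblast marker, was at 9950, 4719 and 13715 and Col1a2 at 2809, 3890 and 5371. The median log2 range of the 6 was 0.31, against 0.19 over all genes, and 2 of the 6 had ranges of at most 0.25. Over the 16 signature genes other than Amotl2 and Lats2 the median log2 deviations were -0.15, -0.02 and 0.15 in replicates 1, 2 and 3, against -0.01, 0.01 and 0.00 over all genes of such a mean. The part of cell composition in the spread of Amotl2, Lats2 and the signature was not tested.

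**Figure D4:**
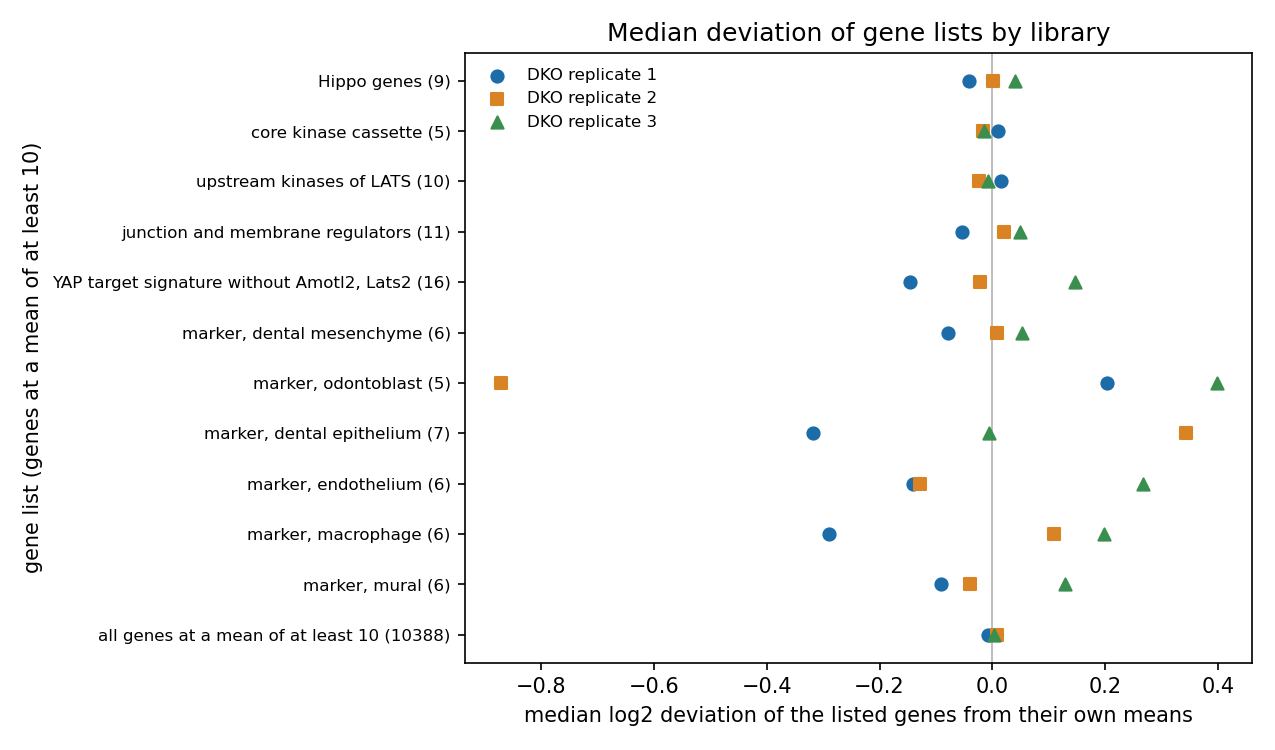
Median over each gene list of the log2 deviation of its genes from their own means, with 1 symbol per DKO library and the number of genes with a mean of at least 10 in parentheses. The kinase lists lie near 0 in every library, and the signature without Amotl2 and Lats2 runs between -0.15 in replicate 1 and 0.15 in replicate 3. All marker lists drawn except dental epithelium have their highest symbol in replicate 3 too.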

How the data were processed

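The authors deposited 1 table of normalized signal per gene, called normalized counts in its name. Alignment with TopHat2 2.0.8 to the mm10 build is recorded per the submitters' processing notes. How reads were counted, with which annotation, strand setting and filters, is not given in the sources used here, so genes that overlap on opposite strands may share reads. Each column was assigned to the library whose name carries the same number. Low values (at most 20 times the smallest) were whole multiples of the smallest, to within 0.1, for 82.6%, 82.4% and 82.5% of genes in replicates 1, 2 and 3, below the 95% asked for, so reads were not recovered and no count model was used.

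Exon lengths came from GENCODE M21 (GRCm38), as the union of annotated exons, and were found for 18933 genes. Coordinates of genes are those of M21. The deposited starts are equal to them for 18842 genes. Logarithms are log2(value + 1), except differences between paralogs, which used values per kilobase with no pseudocount. For paralog pairs, p-values came from exact sign-flip permutation, two-sided, and were adjusted by the Benjamini-Hochberg method over 9 pairs. Analyses used Python 3.11.15 with pandas 2.3.3. The range measure and the search for nearest genes were checked on simulated data, with planted shifts larger than the thresholds used here. Length scaling, paralog differences and the motif search were not simulated.

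The 10 genes, the pathway and marker lists and the measures were chosen with earlier results of these data known. Named genes are all 10, the 4 highest of each pathway list, and pathway genes with a log2 range of at least 0.5 at a mean of at least 10. The main markers are also named, and other genes are identified where they appear. Alternatives were other scalings, pseudocounts and lengths, other thresholds and leaving out each library.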

Additional observations from a re-analysis of the deposited data

How the results depend on the processing

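Rescaling to equal totals, median-of-ratios scaling and removal of 17 mitochondrial and ribosomal RNA genes moved the mean of each of the 10 genes by less than 1 SD. The removed genes held 12.4%, 9.12% and 8.82% of the total in replicates 1, 2 and 3. Leaving out 1 of 3 libraries cannot move a mean by 1 SD, so it says nothing of stability here. Amotl2 and Lats2 stayed lowest in replicate 1 and highest in replicate 3 under these scalings, with ratios of the highest to the lowest library of 1.72 to 1.79 and 1.44 to 1.50. Of the 9 paralog differences, Wwtr1 minus Yap1 was reversed (-0.14) with values not divided by length, and Lats2 minus Lats1 was reversed (0.020) with the longest transcript as length, a setting chosen after seeing the data. No difference was reversed by another pseudocount or by leaving out a library. The median log2 range of 0.12 was 0.075 to 0.098 with a library left out, where fewer libraries enter, and the count of 9 genes at 10 or more was 5 at a threshold of 100, as the construction implies. The 7 signature genes with a log2 range of at least 0.5 were 7 to 8 under the other scalings and 0 to 6 with a library left out, 0 without replicate 1 and 3 without replicate 3, settings also chosen after seeing the data. With a library left out, that count can only stay or fall. No paired analysis was possible because the labels give 1 group. Depth limits statements on Tead4.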

Other observations

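Other regulators of YAP were looked at in lists written after the results above were known. The 14-3-3 proteins, which hold phosphorylated YAP in the cytoplasm, were among the most abundant, with Ywhaz at 619, 635 and 604 and Ywhae at 445, 482 and 459 normalized counts in replicates 1, 2 and 3. Of the 7 genes, 6 had log2 ranges of at most 0.25, against 65.2% of all genes, and the exception was Sfn, an epithelial form, at 12.7, 24.7 and 14.7, which was highest in replicate 2 as were 6 of 7 markers of dental epithelium. STRIPAK, a phosphatase complex that restrains the MST kinases, had 9 of 10 members at a mean of at least 10, and 8 of the 9 had ranges of at most 0.25, against 65.2% of all genes. Replicate 3 was lowest for 7 of these 9, against 34.2% of all genes, and replicate 1 was lowest for 1. Slmap, its adaptor to the MST kinases, was at 108, 109.8 and 107, and Strn3, a scaffold, at 106, 108 and 101.

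All 4 listed genes that lead phosphorylated YAP to degradation had log2 ranges of at most 0.25, against 65.2% of all genes, with Btrc the widest at 0.23. Csnk1d, a casein kinase, stood at 163, 161 and 171 normalized counts, and Fbxw11 and Btrc, which encode paralogous ubiquitin ligase receptors, at 91.6 ± 2.98 and 43.2 ± 3.57 (SD, n = 3). Of the apicobasal polarity genes, which act on Hippo signalling in epithelia, 6 had a mean of at least 10. A range of at most 0.25 was found for 4 of the 6, near the 65.2% of all genes. Their median range was 0.22, against 0.19 over all genes, and Llgl1 was the widest at 0.31. Dlg1 was at 128 ± 5.30 and Pard3 at 91.2 ± 2.94, while the Crumbs genes Crb2 and Crb3 were at 0.283 ± 0.0650 and 0.321 ± 0.107.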
